A study of Mus musculus with 12 samples.

Results

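The pericentral genes of the liver lobule described here were 10 genes chosen by name: Glul, Slc1a2, Oat, Rhbg, Lect2, Cyp2e1, Cyp1a2, Axin2, Lgr5 and Tbx3. Every non-control probe carrying one of these names on the array was taken, which gave 16 of 41174 probes and 10 of 27962 names. Of the 16 probes, 13 passed the filter on dim spots and were tested, and each of the 10 genes kept at least 1 of them. The others, a Slc1a2, an Lgr5 and a Tbx3 probe (A_52_P311194, A_52_P30169 and A_52_P389431), were well above background on at most 1 array and are given no change.

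RNA from livers of Abcb4(-/-) mice was compared with that of Abcb4(+/+) livers by 2-colour hybridisation on 12 Agilent arrays covering the mouse genome. Abcb4 carries phospholipid into bile, and mice lacking it develop a bile duct disease. For 9 weeks the knockout mice ate cholic acid (CA), which according to the series design was meant to raise disease activity, or ursodeoxycholic acid (UDCA), meant to lower it. Each diet had 5 knockout livers and 6 arrays, since 1 liver was repeated with the dyes exchanged. Cy5 marked the knockout RNA on arrays 1 to 3 and Cy3 on arrays 4 to 6. The labels used here give no sex, age, strain or bile acid dose, and do not say what the wild-type mice were fed. All knockout livers came from bile acid-fed mice, so the genotype and the diet cannot be told apart in a ratio to wild type. The sources do not say which arrays share a liver, so each array counted as a replicate. This makes the p-values too small, by an amount that was not estimated.

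The Abcb4 probes were lower in the knockout. A_52_P223194 read -2.73 ± 0.21 with CA and -1.77 ± 0.21 with UDCA, below 0 on 6 of 6 arrays each (adjusted p = 4.32e-08 and 1.82e-05). A_51_P249118 read -0.73 ± 0.21 and -1.28 ± 0.21, below 0 on 5 of 6 arrays each (adjusted p = 0.00699 and 0.00032). Whether a probe falls within the deleted stretch was not stated in the labels. Median green intensity per array was 250.2 to 1296 and median red intensity 59.2 to 158.2, with 1.27% to 5.97% of spots saturated in green and at most 0.961% in red. The number of arrays limits the precision of every estimate.

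Hepatocytes divide their work along the lobule. Those around the central vein receive Wnt and R-spondin signals from the vein's endothelium, and beta-catenin there keeps on genes for glutamine synthesis, glutamate uptake and drug oxidation, while hepatocytes near the portal vein make urea and glucose. Glutamine synthetase (Glul) marks the innermost hepatocytes and removes the ammonia that urea synthesis has left over. Because whole liver was measured, fewer pericentral hepatocytes and less RNA per hepatocyte cannot be told apart.

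Promoter sequences are shown for the members that hold the core letters of the TCF/LEF site, through which beta-catenin acts. RefSeq promoters of mouse build GRCm38.p6 covered 7 of the 10 members, and Rhbg, Lgr5 and Tbx3 were not in that table. In the 250 bases before the start, CTTTGA or its reverse complement TCAAAG stood in 4 of the 7, with 2 matches in Slc1a2, while Glul, Oat and Axin2 had no match in this window. Among all 32851 promoters of the table, 13.8% held a match in the same window. A match is a description of the letters only. Capitals mark the matches in the sequences below, which run 5′ to 3′ along the gene.
Slc1a2 promoter, chr2:102706188-102706437, plus strand: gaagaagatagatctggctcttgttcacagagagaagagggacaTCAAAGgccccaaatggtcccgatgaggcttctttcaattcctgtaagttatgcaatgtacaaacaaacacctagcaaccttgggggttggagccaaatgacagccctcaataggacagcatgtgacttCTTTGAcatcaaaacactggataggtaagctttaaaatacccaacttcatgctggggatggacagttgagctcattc
Cyp1a2 promoter, chr9:57683656-57683905, minus strand: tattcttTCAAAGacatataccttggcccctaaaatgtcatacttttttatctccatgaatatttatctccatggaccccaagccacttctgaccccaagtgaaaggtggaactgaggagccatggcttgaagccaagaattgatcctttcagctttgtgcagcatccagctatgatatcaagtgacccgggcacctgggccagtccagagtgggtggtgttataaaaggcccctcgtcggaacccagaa
Cyp2e1 promoter, chr7:140763569-140763818, plus strand: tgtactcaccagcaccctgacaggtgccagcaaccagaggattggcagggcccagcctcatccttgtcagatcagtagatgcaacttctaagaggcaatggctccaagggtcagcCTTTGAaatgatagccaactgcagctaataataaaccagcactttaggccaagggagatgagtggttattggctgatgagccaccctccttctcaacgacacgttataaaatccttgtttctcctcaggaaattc
Lect2 promoter, chr13:56548539-56548788, minus strand: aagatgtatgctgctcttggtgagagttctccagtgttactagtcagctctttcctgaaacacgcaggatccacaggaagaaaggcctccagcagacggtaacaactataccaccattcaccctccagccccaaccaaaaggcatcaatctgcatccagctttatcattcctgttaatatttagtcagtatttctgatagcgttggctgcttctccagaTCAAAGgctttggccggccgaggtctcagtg

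Changes are log2 values of the knockout signal divided by the wild-type signal, estimated with limma over all 12 arrays with a dye effect per probe and given ± SE. A probe was called at a Benjamini-Hochberg adjusted p under 0.05 over 21688 tested probes, and a gene is represented by its brightest tested probe. Of the 10 members, 6 were called lower and 0 higher in CA-fed knockout liver (Glul, Slc1a2, Cyp2e1, Cyp1a2, Lgr5 and Tbx3). The background was high, since 22.4% of 15373 genes were called lower and 37.8% higher in this comparison. In UDCA-fed knockout liver 7 of the 10 were called lower, the same 6 and Lect2, and 0 higher, against 8.77% of genes called lower and 17.2% higher. The median log2 ratio of the members was -0.88 with either diet, beside 0.10 (CA) and 0.04 (UDCA) over all genes. Oat, Rhbg and Axin2 were called in neither comparison. Ratios were below 0 on all 6 CA arrays for 3 members and on all 6 UDCA arrays for 5, beside 15.2% and 9.42% of all genes. One member, Slc1a2, differed between the diets, where 8.88% of genes were called lower with CA than with UDCA.

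**Figure D1:**
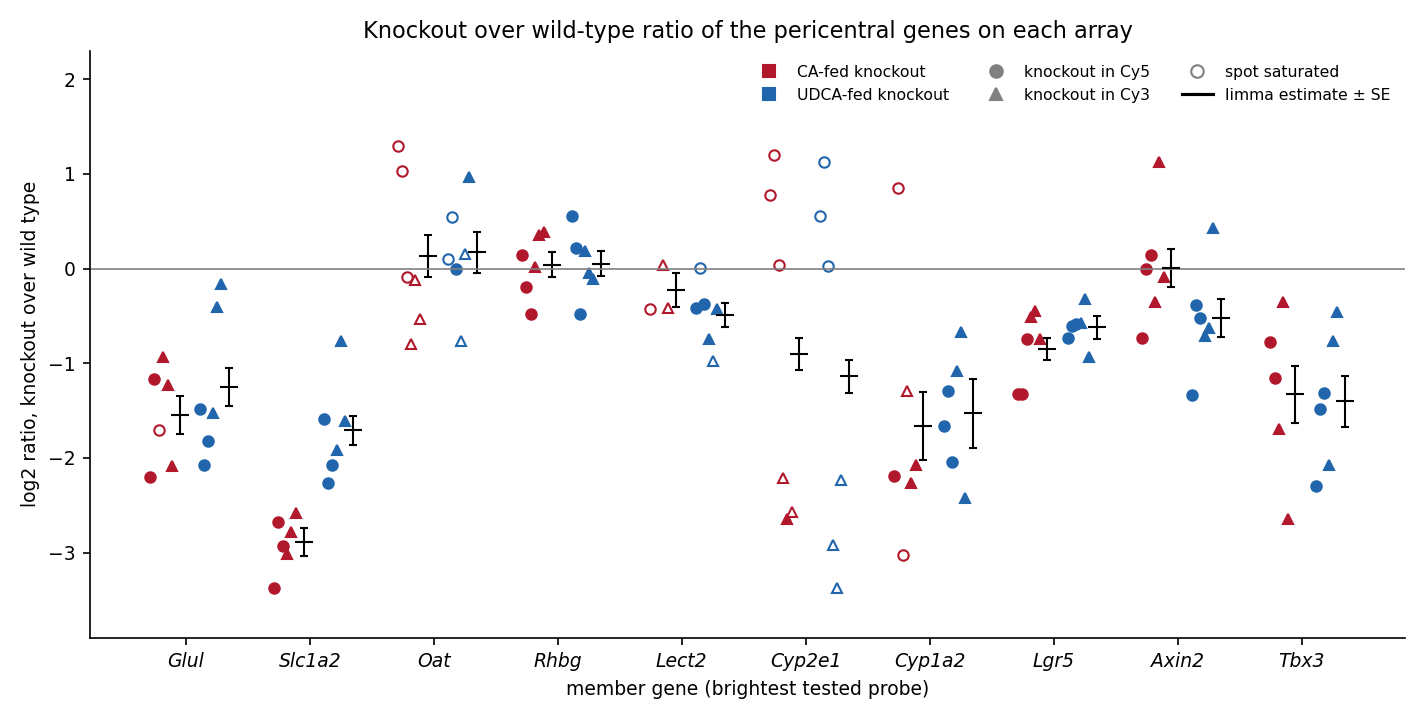
Log2 knockout to wild-type ratio by array (y axis) for the brightest tested probe of each member (x axis), CA in red and UDCA in blue, circles for knockout in Cy5, triangles for knockout in Cy3, open symbols for saturated spots, black bars for the limma estimate ± SE. Slc1a2 is below 0 on all 12 arrays with no overlap between the diets, and Cyp2e1 splits by dye.

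Glul, which joins glutamate and ammonia into glutamine, was lower on all 12 arrays. Its brighter probe (A_52_P101279, mm7 chromosome 1, 153870358 to 153870417) read -2.20, -1.17, -1.70, -0.93, -1.23 and -2.09 on CA arrays 1 to 6. On UDCA arrays 1 to 6 it read -1.48, -2.08, -1.82, -1.53, -0.41 and -0.16. The shallowest values were on UDCA arrays 5 and 6, and the ranges of the diets overlap. Estimates were -1.55 ± 0.20 with CA (2.94-fold lower, adjusted p = 8.39e-06) and -1.25 ± 0.20 with UDCA (2.37-fold lower, adjusted p = 0.000288). The difference of -0.31 ± 0.28 between the diets was not called (adjusted p = 0.445), with a 95% interval from -0.91 to 0.29. Normalized log2 levels of this probe in wild-type liver had a median of 12.48 (11.94 to 14.46) on the CA arrays and 12.98 (12.46 to 13.25) on the UDCA arrays. In knockout liver they had a median of 10.91 (10.71 to 12.75) and 11.42 (10.92 to 12.92). CA array 3 was the highest of its group in both RNAs, and its wild-type spot was saturated. The dimmer Glul probe (A_51_P441798, mm7 chromosome 1, 153869393 to 153869452) was also lower on all 12 arrays, at -1.11 ± 0.20 with CA and -0.80 ± 0.20 with UDCA (adjusted p = 0.000257 and 0.00932). Its UDCA value moved to -0.59 with the slide as a fixed block and was no longer called (adjusted p = 0.0744).

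Slc1a2, a glutamate transporter that takes glutamate up from blood, had the deepest fall of the 10 members in both diets, by the limma estimates of the brightest probes. With UDCA this rank depends on the probe chosen. There the means over the tested probes were -1.24 for Slc1a2, -1.4 for Tbx3 and -1.62 for Cyp1a2. The Slc1a2 probe used here reads the following 60 bases (mm7 chromosome 2, 102628336 to 102628395).
Slc1a2 A_52_P168496: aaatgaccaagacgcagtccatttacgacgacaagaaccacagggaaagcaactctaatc
CA arrays 1 to 6 gave ratios of -3.37, -2.68, -2.93, -3.01, -2.78 and -2.58. With UDCA they were -1.59, -2.27, -2.07, -1.92, -0.77 and -1.61. Every CA ratio was below every UDCA ratio, which held for 3.14% of all genes. The estimates were -2.89 ± 0.15 with CA (7.42-fold lower, adjusted p = 9.55e-10) and -1.71 ± 0.15 with UDCA (3.26-fold lower, adjusted p = 7.86e-07). CA minus UDCA was -1.19 ± 0.21 (adjusted p = 0.00085), a 2.27-fold difference with a 95% interval from -1.62 to -0.75 in log2. Knockout levels of the diets did not overlap, at 7.45 to 8.63 with CA and 9.08 to 9.64 with UDCA, whereas wild-type levels overlapped at 10.22 to 11.44 and 10.41 to 11.35. No array held both diets, so the difference is indirect. Slides 3 and 4 held both diets, with 1 CA array on each. From ratios less the fitted dye effect, the difference was -1.23 on slide 3 and -1.11 on slide 4. On slide 3 the knockout was in Cy3 with CA and in Cy5 with UDCA, so diet and dye cannot be told apart there. With the slide as a fixed block the fitted difference was -1.16 (adjusted p = 0.0809). It was -0.59 with between-array scaling (adjusted p = 0.109) and -1.41 with median centring (adjusted p = 0.161). The call was lost under these settings while the direction held.

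The second Slc1a2 probe (A_51_P477875, mm7 chromosome 2, 102628431 to 102628490) gave smaller ratios in the same order. It read -2.17, -2.17, -1.51, -1.76, -1.89 and -0.80 on the CA arrays and -0.65, -0.91, -0.68, -0.72, -0.47 and -1.25 on the UDCA arrays. CA array 6 lay above UDCA arrays 2 and 6, and the other 5 CA arrays lay below every UDCA array. The knockout signal was well above background on 3 of 6 CA arrays and 5 of 6 UDCA arrays. Its estimates were -1.72 ± 0.15 with CA, -0.78 ± 0.15 with UDCA and -0.94 ± 0.22 for the difference (adjusted p = 2e-07, 0.00156 and 0.00545). The scanner's processed signals gave -3.74 with CA and -2.11 with UDCA, and where the knockout spot was not well above background the ratio may understate the fall. With the slide as a fixed block the difference was -0.48 and not called (adjusted p = 0.318).

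**Figure D2:**
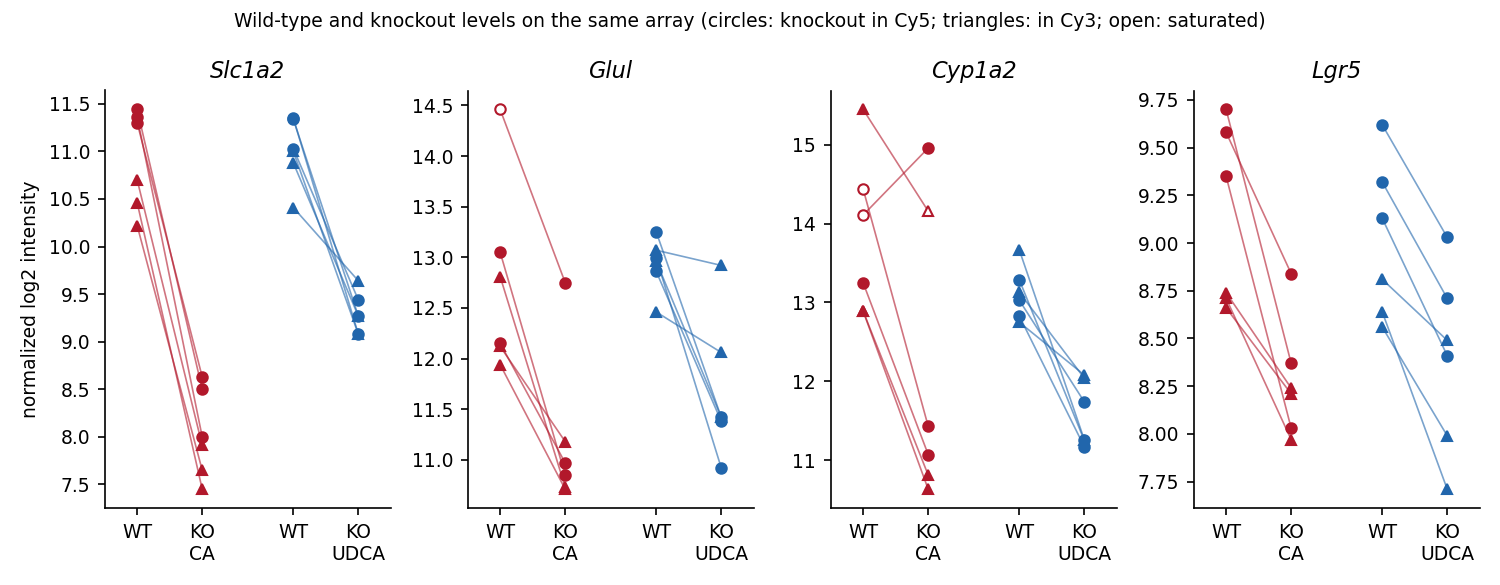
Normalized log2 intensity (y axis) of Slc1a2, Glul, Cyp1a2 and Lgr5 in wild-type (WT) and knockout (KO) liver, with lines joining the RNAs of 1 array, red for CA and blue for UDCA, circles for knockout in Cy5, triangles for knockout in Cy3 and open symbols for saturated spots. Slc1a2 knockout levels lie at 7.45 to 8.63 with CA and 9.08 to 9.64 with UDCA, and 1 Cyp1a2 line on the CA side runs upward.

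Oat and Rhbg, which handle ornithine and ammonia in the same pericentral cells, were not called. Oat, the mitochondrial ornithine aminotransferase (A_51_P141535, mm7 chromosome 7, 128962937 to 128962996), read 1.29, 1.03, -0.09, -0.80, -0.12 and -0.53 with CA. With UDCA it read 0.10, 0.54, 0.00, -0.76, 0.15 and 0.97. Values fell on both sides of 0 in each diet, and 1 channel was saturated on 6 CA and 4 UDCA arrays. Its estimates were 0.13 ± 0.22 (adjusted p = 0.634, 95% interval -0.35 to 0.61) and 0.17 ± 0.22 (adjusted p = 0.648, -0.31 to 0.64). With saturated spots among them, these intervals do not limit the size of an Oat change. Rhbg, an ammonium transporter of the basolateral membrane (A_51_P400366, mm7 chromosome 3, 88357144 to 88357203), was never saturated. It read 0.14, -0.20, -0.48, 0.02, 0.35 and 0.39 with CA, and 0.55, 0.22, -0.48, 0.18, -0.05 and -0.11 with UDCA. Its estimates were 0.04 ± 0.13 (adjusted p = 0.834, 95% interval -0.25 to 0.32) and 0.05 ± 0.13 (adjusted p = 0.838, -0.24 to 0.34). A change of the size seen for Glul lies outside these Rhbg intervals. Under the alternative settings tried, Oat was called in 0 of 23 and Rhbg in 0 of 24 for each diet.

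Cyp1a2, a cytochrome P450 that oxidises caffeine and aromatic amines, was lower in both diets with 1 array going the other way. It was read by a pair of probes, A_52_P595871 and A_51_P450140, which do not overlap and which both put CA array 2 highest and CA array 3 lowest. The 60 bases of the second lie within an interval longer than the probe (mm7 chromosome 9, 57708722 to 57709371). They are shown because this probe gave the deeper fall in both diets.
Cyp1a2 A_51_P450140: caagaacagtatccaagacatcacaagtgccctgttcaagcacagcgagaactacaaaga
The first probe read -2.19, 0.85, -3.02, -1.29, -2.26 and -2.08 on the CA arrays. On the UDCA arrays it read -1.66, -1.29, -2.04, -1.08, -0.67 and -2.42. The second probe read -2.10, 0.63, -3.56, -2.06, -2.60 and -2.79 with CA and -1.48, -1.17, -1.78, -1.67, -1.37 and -2.80 with UDCA. Array 2 of the CA group was above 0 with either probe and array 3 was the lowest. Knockout levels of the first probe were 14.96 on CA array 2 and 14.16 on CA array 4, where wild type read 14.11 and 15.45, and 10.63 to 11.43 on CA arrays 1, 3, 5 and 6. The wild-type spot of CA array 2 was saturated for both probes, so its ratios are upper bounds, and for the first probe so were the wild-type spot of array 3 and the knockout spot of array 4. The first probe gave -1.66 ± 0.36 with CA and -1.53 ± 0.36 with UDCA (adjusted p = 0.00103 and 0.00588), and the second gave -2.08 ± 0.35 and -1.71 ± 0.35 (adjusted p = 0.000135 and 0.00234). The difference between the diets was not called for either probe (-0.14 ± 0.51 and -0.37 ± 0.50, adjusted p = 0.873 and 0.623). With the slide as a fixed block the first probe's UDCA value was -0.88 and not called (adjusted p = 0.146), and with median centring neither its CA nor its UDCA value was called (adjusted p = 0.11 and 0.376). Without CA array 2 the second probe's difference was -0.90 and called (adjusted p = 0.049), whereas the first probe's was called in 0 of 12 fits without an array, and with saturated spots set to missing the second probe's was also -0.90 (adjusted p = 0.0365).

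The aryl hydrocarbon receptor is the classic inducer of Cyp1a2, and its part in the Cyp1a2 change was not tested. Of 9 genes of its battery, 6 were measured. With CA 2 were higher and 2 lower, and with UDCA 3 were higher and 1 lower. Of all genes 37.8% were called higher and 22.4% lower with CA, and 17.2% and 8.77% with UDCA. The receptor Ahr was higher in both diets (0.70 ± 0.12 and 0.54 ± 0.12, adjusted p = 0.000133 and 0.00354). Cyp1a1 was at -0.39 ± 0.10 with CA (adjusted p = 0.00504) and -0.28 ± 0.10 with UDCA (adjusted p = 0.0633), and Cyp1b1 rose by 1.60 ± 0.18 and 0.80 ± 0.18 (adjusted p = 2.3e-06 and 0.00423). Nqo1, a quinone reductase, rose with UDCA (1.30 ± 0.17, adjusted p = 3.87e-05) and was at 0.35 ± 0.17 with CA (adjusted p = 0.0799), a called difference of -0.95 ± 0.23 (adjusted p = 0.00837).

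Cyp2e1, the ethanol- and acetaminophen-oxidising P450, was called lower in both diets, but its ratios split by dye. The probe (mm7 chromosome 7, 137190949 to 137191008) reads these 60 bases.
Cyp2e1 A_51_P283456: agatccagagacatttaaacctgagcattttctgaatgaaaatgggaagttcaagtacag
With the knockout in Cy5 it read 0.78, 1.20 and 0.04 on CA arrays 1 to 3 and 0.56, 1.13 and 0.03 on UDCA arrays 1 to 3. With the knockout in Cy3 it read -2.21, -2.65 and -2.57 on CA arrays 4 to 6 and -2.92, -3.37 and -2.23 on UDCA arrays 4 to 6. At least 1 channel was saturated on 11 of 12 arrays, and the fitted dye effect was 1.64, so a saturated spot gives only a lower bound of its level. The estimates were -0.90 ± 0.17 with CA (adjusted p = 0.000367) and -1.14 ± 0.17 with UDCA (adjusted p = 0.000185). Without a dye effect in the fit the same values were not called (adjusted p = 0.252 and 0.258), and from the scanner's processed signals the CA value was -0.42 (adjusted p = 0.156). The deposited series table gave the deepest values, -2.14 with CA and -1.89 with UDCA. With saturated spots set to missing it could not be fitted, so no Cyp2e1 estimate free of saturated spots could be given. Among 1136 genes saturated on at least 6 arrays, 13.8% were called lower and 8.36% higher with CA, and 9.15% and 4.14% with UDCA.

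Lect2, a secreted protein that is a beta-catenin target in liver, was called lower only with UDCA, and the difference between the diets was not called. Its probe (A_51_P249909, mm7 chromosome 13, 55634291 to 55634350) kept 3 of 6 CA values after outlier spots were dropped, which were -0.43, 0.04 and -0.42 on arrays 2, 5 and 6. On the UDCA arrays it read -0.42, 0.01, -0.37, -0.74, -0.98 and -0.43. A channel was saturated on 6 CA and 2 UDCA arrays. Estimates were -0.23 ± 0.18 with CA (adjusted p = 0.292) and -0.49 ± 0.13 with UDCA (adjusted p = 0.0134), and CA minus UDCA was 0.26 ± 0.22 (adjusted p = 0.416). The UDCA call was lost without UDCA array 5 (-0.40, adjusted p = 0.0553), with the replicate block (adjusted p = 0.0578) and from the scanner's processed signals (-0.45, adjusted p = 0.0554). It was also lost with median centring, where the value moved most (-0.20, adjusted p = 0.792).

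Lgr5 and Axin2 are themselves parts of the Wnt pathway. Lgr5, a receptor for R-spondins, was lower on all 12 arrays (A_51_P218091, mm7 chromosome 10, 114958025 to 114958084). It read -1.33, -1.33, -0.74, -0.51, -0.45 and -0.74 with CA, and -0.73, -0.61, -0.59, -0.57, -0.32 and -0.93 with UDCA. Its ranges overlap between the diets. The estimates were -0.85 ± 0.12 (1.8-fold lower, adjusted p = 1.76e-05) and -0.62 ± 0.12 (1.54-fold lower, adjusted p = 0.00104), with a difference of -0.22 ± 0.16 (adjusted p = 0.34). The scanner's processed signals gave deeper Lgr5 values, -1.46 with CA and -1.58 with UDCA. Axin2, a scaffold of the complex that degrades beta-catenin and a feedback target of it (A_52_P54176, mm7 chromosome 11, 109059707 to 109059766), read -0.73, -0.01, 0.14, -0.35, 1.13 and -0.09 with CA. With UDCA it read -1.34, -0.38, -0.52, -0.71, -0.63 and 0.43. The CA values straddle 0, with array 5 highest, and the UDCA values are below 0 on 5 of 6 arrays. Estimates were 0.01 ± 0.20 with CA (adjusted p = 0.956) and -0.52 ± 0.20 with UDCA (adjusted p = 0.0718), and the difference of 0.54 ± 0.28 was not called (adjusted p = 0.173). The UDCA value was called in 6 of 24 alternatives, among them leaving out UDCA array 6 (-0.69, adjusted p = 0.0221), and the CA value in 0 of 24.

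Tbx3, a transcription factor downstream of beta-catenin in liver, was lower on all 11 arrays that kept a value (A_52_P183368, mm7 chromosome 5, 118918450 to 118918509). CA array 1 was dropped as an outlier spot, and arrays 2 to 6 read -0.78, -1.16, -1.69, -0.35 and -2.65. The UDCA arrays read -2.30, -1.48, -1.31, -2.07, -0.76 and -0.46. The spread within each diet was wide and the diets overlap. Its estimates were -1.33 ± 0.30 with CA (2.52-fold lower, adjusted p = 0.00164) and -1.40 ± 0.27 with UDCA (2.63-fold lower, adjusted p = 0.00178), with a difference of 0.06 ± 0.41 (adjusted p = 0.929). With the slide as a fixed block the UDCA value was -1.10 and not called (adjusted p = 0.0647).

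**Figure D3:**
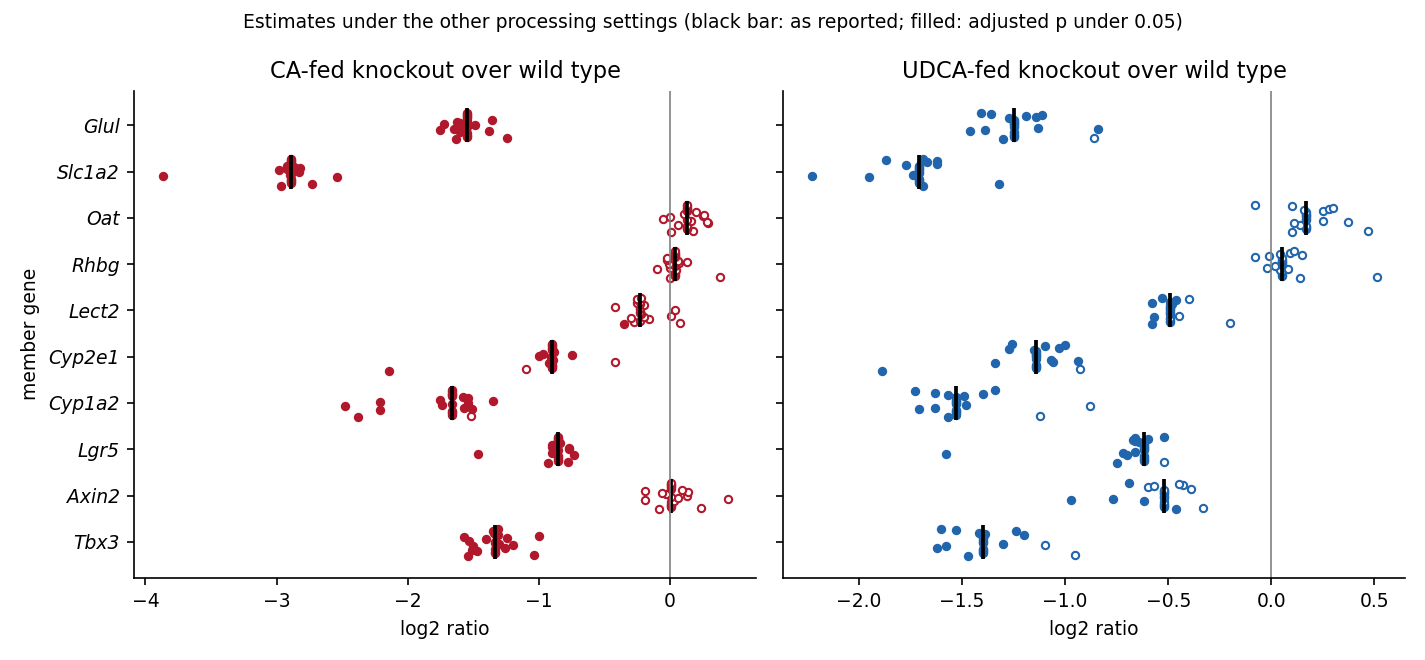
Log2 ratio of each member (x axis) under each of the other processing settings, a point per setting, filled where the adjusted p was under 0.05, with a black bar for the reported value, CA on the left and UDCA on the right. Slc1a2 is filled under every setting in both panels, while Oat and Rhbg are open throughout.

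The direction of 6 members held under every alternative that could be fitted, in both diets, namely Glul, Slc1a2, Cyp2e1, Cyp1a2, Lgr5 and Tbx3. For Cyp2e1 each of these alternatives rests on saturated spots. In the CA comparison the brightest probes of Glul, Slc1a2, Lgr5 and Tbx3 were called in 24 of 24 alternatives. In the UDCA comparison Slc1a2 was called in 24 of 24, Glul and Lgr5 in 23, and Tbx3 and Cyp1a2 in 22. Leaving out any single array left 6 members called lower with CA and 6 to 8 with UDCA, the gain being Axin2 (without CA array 5 or UDCA array 6) and the loss Lect2 (without UDCA array 5). Centring by the array median in place of loess left 4 members called with CA and 1, Slc1a2, with UDCA. That setting moved the median of all probes from 0.05 to 0.23 with CA and from 0.03 to 0.29 with UDCA.

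Beyond the 10 members, 23 of 25 other pericentral genes were measured. With CA 12 were lower and 3 higher, with a median of -0.53, and with UDCA 6 were lower and 5 higher, with a median of -0.17. Of all genes 22.4% were called lower and 37.8% higher with CA, and 8.77% and 17.2% with UDCA. Cyp2c54, a drug-metabolising P450, fell by 3.72 ± 0.18 with CA and by 2.37 ± 0.20 with UDCA (adjusted p = 1.26e-09 and 1.05e-06). Nr1i3, the nuclear receptor CAR, fell by 1.97 ± 0.13 and 1.12 ± 0.13 (adjusted p = 9.21e-09 and 1.37e-05). Cyp7a1, which starts the conversion of cholesterol to bile acids, fell by 1.94 ± 0.27 and 2.12 ± 0.27 (adjusted p = 2.05e-05 and 3.85e-05), and Cyp2c37 fell by 2.17 ± 0.27 and 0.99 ± 0.27 (adjusted p = 7.07e-06 and 0.0152). Gstm3, a glutathione transferase, went the other way with UDCA (1.14 ± 0.12, adjusted p = 7.47e-06) and was at -0.02 ± 0.13 with CA (adjusted p = 0.916), where its sign changed with the processing and all 6 arrays were saturated. Of the 23, 9 were called lower and 1 higher with CA than with UDCA, beside 8.88% and 18.8% of all genes. The 9 became 1 with median centring, 4 with the slide as a fixed block and 5 with the scanner's processed signals, between-array scaling or saturated spots missing. In this list 13 genes were saturated on at least 3 CA arrays, and with saturated spots set to missing the count called lower with CA was 6 and with median centring 5. The UDCA count of 6 became 1 with median centring, where the median was 0.08, and 2 with the slide as a fixed block.

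Periportal genes, the opposite end of the lobule, had 7 of 21 lower and 2 higher with CA (median -0.39), and 2 lower and 1 higher with UDCA (median -0.17). The shares of all genes were 22.4% lower and 37.8% higher with CA, and 8.77% and 17.2% with UDCA. Of the 21, 13 were saturated on at least 3 arrays of each diet. The urea cycle enzymes Cps1 and Ass1 were not called in either diet (Cps1 -0.11 ± 0.27 and -0.09 ± 0.25, Ass1 0.17 ± 0.23 and -0.57 ± 0.23, adjusted p = 0.751, 0.843, 0.549 and 0.0919). All 6 CA and all 6 UDCA arrays were saturated for Cps1, and 6 and 4 for Ass1 and Gls2, so these estimates do not limit the size of a change. Gls2, the liver glutaminase that feeds ammonia to the urea cycle, was at -0.39 ± 0.22 and -0.48 ± 0.22 (adjusted p = 0.134 and 0.129). Sds, serine dehydratase, fell by 0.72 ± 0.16 and 0.86 ± 0.16 (adjusted p = 0.00119 and 0.000994), and Etnppl fell by 1.27 ± 0.22 with CA (adjusted p = 0.000299). Cdh1, E-cadherin, which bile duct cells also express, rose by 2.04 ± 0.11 and 1.58 ± 0.11 (adjusted p = 1.92e-09 and 1.53e-07). The count of 7 was 4 without CA array 3 or CA array 6, and 0 with median centring.

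**Figure D4:**
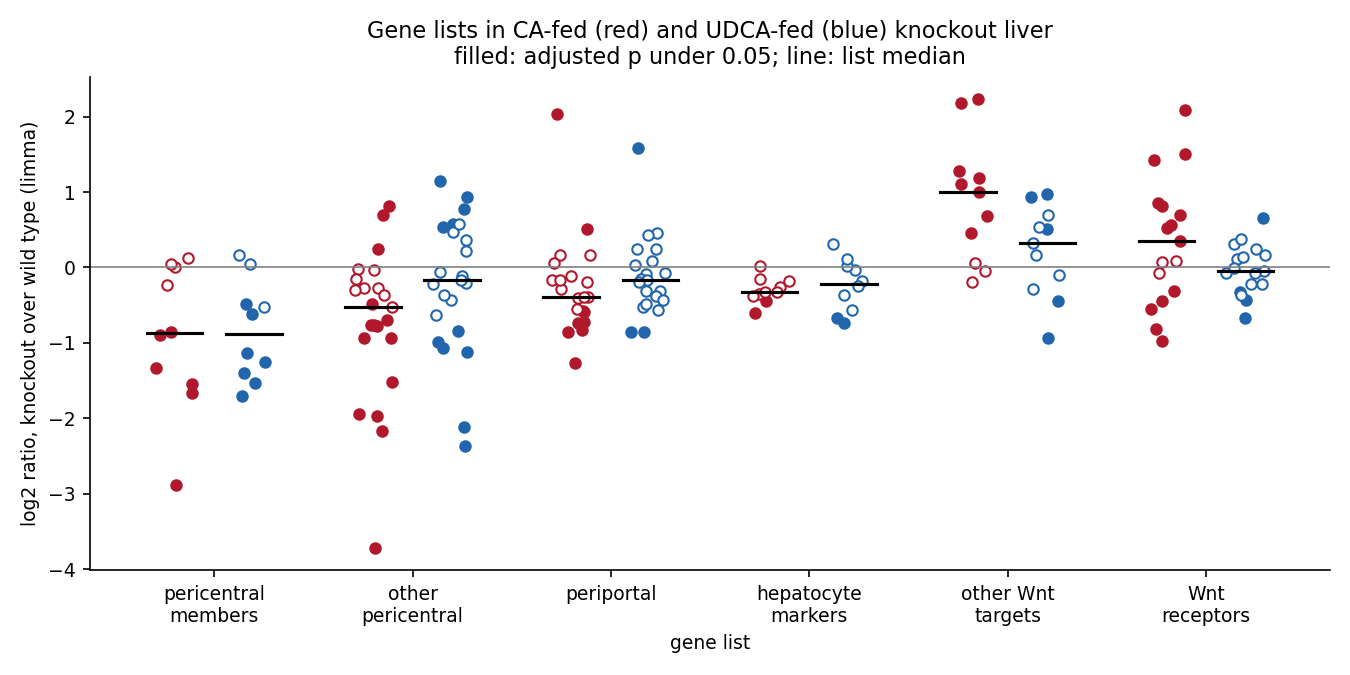
Limma log2 knockout to wild-type ratio (y axis) for each measured gene of 6 lists (x axis), CA in red and UDCA in blue, filled where the adjusted p was under 0.05, with a line at the list median. Medians of the pericentral members sit at -0.88 in both diets, those of the periportal list at -0.39 and -0.17, and that of the other Wnt targets at 1 with CA.

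Wnt pathway genes were called in both directions. Of all genes 37.8% were called higher and 22.4% lower with CA, and 17.2% and 8.77% with UDCA. Of 13 ligands and secretion genes measured out of 25, 7 were higher and 3 lower with CA, and 2 higher and 0 lower with UDCA. The 3 lower with CA and the 2 higher with UDCA are near those shares. Wnt2 and Wnt9b, the ligands that central vein and sinusoidal endothelium make, were at -0.56 ± 0.14 (adjusted p = 0.00228) and -0.23 ± 0.11 (adjusted p = 0.0737) with CA and at -0.24 ± 0.14 and -0.02 ± 0.11 with UDCA (adjusted p = 0.236 and 0.908). Rspo3, the R-spondin of the central vein, was too dim to be tested. Wls, which carries Wnt proteins to the cell surface, rose by 2.79 ± 0.14 and 1.14 ± 0.14 (adjusted p = 7.84e-10 and 1.98e-05). Among 17 receptors 9 were higher and 5 lower with CA, and 1 higher and 3 lower with UDCA. Lgr4, the R-spondin receptor that hepatocytes express alongside Lgr5, fell by 0.97 ± 0.13 and 0.67 ± 0.13 (adjusted p = 1.24e-05 and 0.00133), while Fzd1 rose by 2.09 ± 0.14 and 0.65 ± 0.14 (adjusted p = 1.08e-08 and 0.00307).

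Targets of the pathway other than the members numbered 11. Of these, 8 were higher and 0 lower with CA (median 1), and 3 were higher and 2 lower with UDCA (median 0.33). Shares of all genes were 37.8% higher and 22.4% lower with CA, and 17.2% and 8.77% with UDCA. Between the diets 5 of the 11 were called higher with CA and 0 lower, beside 18.8% and 8.88% of all genes. Cd44, a matrix receptor of many cell types, and Nkd2, a feedback inhibitor, rose by 2.18 ± 0.14 and 2.23 ± 0.25 with CA (adjusted p = 9.99e-09 and 1.91e-06). Sp5, a transcription factor and direct target, fell by 0.93 ± 0.16 with UDCA (adjusted p = 0.000618) and was at -0.05 ± 0.16 with CA (adjusted p = 0.824), a called difference of 0.88 ± 0.23 (adjusted p = 0.0109). The ubiquitin ligases Znrf3 and Rnf43, which clear Wnt receptors, were at 0.06 ± 0.11 and -0.20 ± 0.16 with CA (adjusted p = 0.671 and 0.304). With UDCA they were at -0.29 ± 0.11 (adjusted p = 0.0754) and -0.45 ± 0.13 (adjusted p = 0.0246). Among 5 measured extracellular inhibitors 4 rose and 1 fell with CA, the one that fell being Notum, a Wnt deacylase and pericentral target, at -1.62 ± 0.13 in both diets (adjusted p = 5.21e-08 and 3.91e-07). Frzb and Dkk3 rose with CA by 2.06 ± 0.20 and 2.00 ± 0.21 (adjusted p = 6.04e-07 and 1.14e-06). Ctnnb1, beta-catenin itself, was higher, at 0.78 ± 0.15 with CA and 0.47 ± 0.15 with UDCA (adjusted p = 0.00034 and 0.0294). Of the 18 measured genes of its degradation complex and partners, Ctnnb1 included, 5 were higher and 4 lower with CA. The lower count is near the share of all genes.

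Glutamine, ornithine and ammonia genes outside the member list gave 8 higher and 3 lower of 20 measured with CA, and 4 higher and 3 lower with UDCA, with CA beside 37.8% and 22.4% of all genes and with UDCA beside 17.2% and 8.77%. The CA counts are near those shares. Slc1a5, a neutral amino acid transporter, rose with CA by 1.44 ± 0.12 (adjusted p = 8.51e-08). Slc38a3, a glutamine transporter, fell by 1.27 ± 0.30 with UDCA (adjusted p = 0.00541) and was at -0.46 ± 0.30 with CA (adjusted p = 0.2), with saturated spots on 5 UDCA and 4 CA arrays, so these sizes are not exact.

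Markers of other cell types moved beside the members. Of all genes 37.8% were called higher and 22.4% lower with CA, and 17.2% and 8.77% with UDCA. All 8 cholangiocyte and all 8 stellate cell markers were higher with CA, with per-array medians of 2.17 to 3.55 and 1.21 to 3.19. With UDCA 5 and 7 of them were higher, with per-array medians of 0.56 to 2.43 and 1.46 to 2.28. General hepatocyte markers had 2 of 10 lower in each diet, Ttr and Hnf4a (whose CA value was 0.09 under median centring). After outlier spots were dropped, Hnf4a was below 0 on 3 CA arrays and above 0 on 1, and below 0 on 4 UDCA arrays. The hepatocyte medians were -0.32 (-0.75 to -0.06 over the arrays) with CA and -0.22 (-1.13 to 1.66) with UDCA. Of the 10, 9 were saturated on at least 3 CA arrays and 8 on at least 3 UDCA arrays, so these medians are not exact. The hepatocyte count lower with CA is near the share of all genes. Alb, saturated on all 12 arrays, was at -0.35 ± 0.37 and 0.02 ± 0.37 (adjusted p = 0.432 and 0.981). UDCA array 6 stood apart, with a hepatocyte median of 1.66 and a cholangiocyte median of 2.43, where the other UDCA arrays read -1.13 to 0.15 and 0.56 to 1.12. It had 0.961% of red spots saturated, the most of the 12 arrays, and the size of its hepatocyte median is not exact. The same array had the shallowest UDCA ratios of the brighter Glul probe (-0.16) and of Tbx3 (-0.46), and the deepest of the dimmer Glul probe (-1.34). The part of these markers in the members' changes was not tested.

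Across the 12 arrays the ratios of the brighter Glul probe, less the dye effect, were most like those of Lhpp (Pearson r = 0.934), 0610009B22Rik (0.916), Nat2 (0.891), Aig1 (0.86) and Wdr53 (0.859) among 14206 genes with 12 values. Lhpp is in the list of other pericentral genes counted above. The points share 2 diets and 5 slides, and the r is a description. These 5 genes were at -0.37 to 0.07 with CA, so they followed the order of the arrays and not the depth of the Glul fall. Among the members Tbx3 had the highest r with Glul (0.669 over the arrays with a value), then Slc1a2 (0.494), and Rhbg the lowest (-0.406).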

How the data were processed

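Per the file headers, Feature Extraction 9.5.3 gave the mean intensity and local background of each spot in green and red, not normalized, and a log10 ratio of red over green from its processed signals. The deposited series table holds log2 ratios, with medians per array between -0.044 and 0.047; correlation with the scanner files showed that its CA columns run opposite to knockout over wild type, so they were turned. The sources used here do not give their normalization or centring.

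The members and lists were chosen with earlier results of these data known. Intensities were corrected with normexp (offset 50) and loess within arrays in limma 3.58.1 (R 4.3.3, data.table, version 1.17.8), leaving out 1639 control spots of 45018 and setting outlier spots to missing (0.922% of 260256 values). Probes were kept if 1 RNA of 1 diet stood well above background on 5 or more of 6 arrays, and 21688 were tested. limma fitted both diets and a dye effect per probe (9 residual and 5.95 prior degrees of freedom); the fit was checked on simulated data. Symbols came from RefSeq through accessions for 15542 probes, and from the files for 6146. Probe positions are mm7, as the files give them; exon and UTR positions were not used here. Single-channel levels follow loess and Aquantile.

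Named genes were all member probes, up to 3 called genes of each list with the largest ratio per diet, 12 fixed pathway genes where measured, and 5 genes most like Glul. Alternatives were other normalizations, filters, saturation handling, dye, slide and replicate blocks, the series table and leaving out each array. Arrays of the same number did not deviate together (residual correlations -0.579 to 0.123), and numbers were not used to pair samples. The dye-swapped pair could not be found in the residuals (highest correlation 0.123 with CA and 0.073 with UDCA). Since this check missed a pair that exists, it cannot exclude pairing by number. The sequence of 1 probe and the values of 1 listed gene are not reported here.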

Additional observations from a re-analysis of the deposited data

Results flagged for a closer look

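Cyp1a2 probe A_51_P450140 read 0.63 on CA array 2, where the next value was -2.06 and the lowest -3.56. The wild-type spot there was saturated, so 0.63 is an upper bound of the ratio and the gap is not exact. The gap was 0.643 of the range, over the 95% critical value of 0.625 for 6 samples. It was the 1 far value in 25 groups of member values, and chance gives about 1 in 20.

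Slc1a2 was lower with CA than with UDCA by both tested probes in the limma fit, at -1.19 (A_52_P168496, adjusted p = 0.00085) and -0.94 (A_51_P477875, adjusted p = 0.00545). The slides that held both diets gave -1.23 and -1.11 for the first probe, from ratios less the fitted dye effect, with 1 CA array on each. With the slide as a fixed block neither difference was called (-1.16 and -0.48, adjusted p = 0.0809 and 0.318).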

How the results depend on the processing

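Probes called were 12919 with CA, 5085 with UDCA and 5843 for the difference. Median centring gave 6141, 1976 and 815, and a fixed slide block 1969 for the difference. A filter on both channels of all arrays gave 6947 with CA and 3217 for the difference. That filter left 12016 probes to test in place of 21688, so its counts have a smaller base. Members called lower were 6, 7 and 1. With CA the count became 4 under centring and 7 with the series table. It became 5 with the scanner's processed signals, with saturated spots missing or without a dye effect. With UDCA the count became 1 under centring and 5 with the fixed slide block or with saturated spots missing. It became 8 with between-array scaling or the series table. For the difference the count became 0 under centring, between-array scaling and the fixed slide block, and 2 with the series table. The share of calls that were higher was 57.4% (CA), 64.2% (UDCA) and 60.9% (difference), 80.4%, 94.4% and 84.5% under centring, and 46.5%, 54.9% and 46.3% under the stricter filter. The cause was not tested.

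Leaving out single arrays gave 11755 to 13247, 3953 to 5557 and 4390 to 6811 probes called, and 6 to 6, 6 to 8 and 1 to 1 members lower. With the replicate block 12217, 4385 and 4728 probes and 6, 6 and 1 members were called; among members it changed only the Lect2 call with UDCA. 0 of 6 CA arrays matched the UDCA array of their own number best.

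Named genes changed side under centring (Hnf4a 0.09 with CA, Tcf7l2 0.00 and Kdr 0.05 with UDCA), with the processed signals (Gstm3 0.52 with CA, Wnt10a -0.32 for the difference), with the fixed slide block (Lgr6 0.53 and Cel -0.71 with UDCA) and with the series table (Gstm3 1.01 with CA, Hnf4a -0.98 for the difference). Saturation of bright spots and 6 arrays per diet limit the rest.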

Other observations

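The counts below stand beside 22.4% of all genes called lower and 37.8% higher with CA, and 8.77% and 17.2% with UDCA. Of 8 Kupffer cell markers 5 were lower and 3 higher with CA, and 2 lower and 4 higher with UDCA. Clec4f, a Kupffer cell lectin, was at -3.37 ± 0.24 with CA and -0.18 ± 0.24 with UDCA (limma adjusted p = 2.12e-08 and 0.658), a difference of -3.19 ± 0.34 (adjusted p = 3.59e-05). Marco, a scavenger receptor, fell by 2.29 ± 0.16 and 0.67 ± 0.16 (adjusted p = 1.23e-08 and 0.00511). Adgre1, a mouse macrophage marker, rose by 2.61 ± 0.13 and 1.15 ± 0.12 (adjusted p = 2.27e-09 and 1e-05). Among endothelial markers, Oit3 fell by 0.97 ± 0.15 with CA (adjusted p = 5.44e-05) and Kdr by 0.56 ± 0.11 (adjusted p = 0.000482), while Thbd rose by 1.60 ± 0.19 (adjusted p = 3.37e-06). Of the 8 endothelial markers 2 were higher and 3 lower with CA, and 1 higher and 1 lower with UDCA. Of 4 measured T and B cell markers 3 were higher and 1 lower with CA. Of 7 exocrine pancreas genes 3 were measured, and all 3 were called lower with CA. Their median ratio was -3.35 and -3.27 on CA arrays 3 and 4, which share slide 2. It was -0.87 to -0.23 on the other CA arrays.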
